A study of Mus musculus with 10 samples.

Results

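Chemokines are small secreted proteins that steer the movement of leukocytes and other cells through receptors coupled to G proteins. The 10 genes described here are 8 ligands (Cxcl12, Cxcl14, Cxcl1, Cxcl10, Ccl2, Ccl7, Ccl8 and Ccl9) and 2 receptors (Cxcr4 and Ccr2), out of 18193 genes measured in the pulp tissue of the mouse incisor. They were chosen by name, and 19 probe sets on the array carry exactly 1 of these symbols. Where a gene has several, the brightest on average over the 10 arrays stands for it, and the others serve as a check.

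Total RNA of incisor dental mesenchyme, taken from lower incisors of wild-type C57BL/6J mice at postnatal day 60, was measured on arrays; the sex was not determined. The 5 denervated samples came from the side on which the inferior alveolar nerve, which carries sensation from the teeth of the lower jaw, had been resected 2 weeks before. The 5 contralateral samples came from the other side, so they belong to the operated animals. Without a sham operation to set them against, the effects of nerve loss and of surgery cannot be told apart. Arrays of equal number are treated as the incisors of the same mouse. Values are log2 intensities, and a difference is always denervated minus contralateral.

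Array medians lay between 1.48 and 1.54, and values ran from -0.16 to 13.2. A mean below 2 is close to the low end of this scale, where 40.7% of all genes lie. The 6 fibroblast-like mesenchymal genes checked had means from 4.94 to 13.02, with 13.02 for the collagen gene Col1a1 and 11.27 for the proteoglycan gene Lum. The samples also held enamel epithelium: the ameloblastin gene Ambn averaged 12.35 ± 1.54 in denervated and 13.02 ± 0.05 in contralateral incisors (SD, n = 5). Denervated array 3 stood apart there, with a mean difference of -3.26 over 7 epithelial genes in mouse 3. In tissue RNA, fewer cells of a type and less RNA per cell cannot be told apart.

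In tissues, CXCL12 is made by stromal cells and acts on CXCR4, a pair known for holding leukocytes and stem cells in place, while CCL2 and CCL7 call monocytes from the blood through CCR2. CXCL1 attracts neutrophils, and CXCL10, induced by interferon, attracts T cells. CXCL14 is a stromal and epithelial chemokine whose receptor is not settled.

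Denervated means were higher for 7 of the 10 genes and lower for 3, with a median difference of 0.43. Over all 18193 genes 55.8% had a higher mean, and the median difference was 0.02. Cxcl12, Cxcr4, Cxcl14, Ccl9 and Ccr2 were higher on the denervated side in each of the 5 mice, which holds for 6.58% of all genes. Cxcl1 was lower in each of the 5 mice, as were 3.8% of all genes. The groups overlapped in every one of the 10, and 0.528% of all genes had every denervated array above every contralateral array.

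No gene passed limma's test with Benjamini-Hochberg adjustment over all 18193 genes (0%), and the adjusted p of the 10 genes lay between 0.790 and 0.957. With the mouse as a block 0% of genes passed as well, and the smallest adjusted p among the 10 was 0.318. Counted at an unadjusted p under 0.05, 4 of the 10 were higher (4.1% of all genes). With the mouse as a block, 6 were higher and 1 lower on that count, against 6.99% and 2.93% of all genes. The values below are therefore given without a call.

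**Figure D1:**
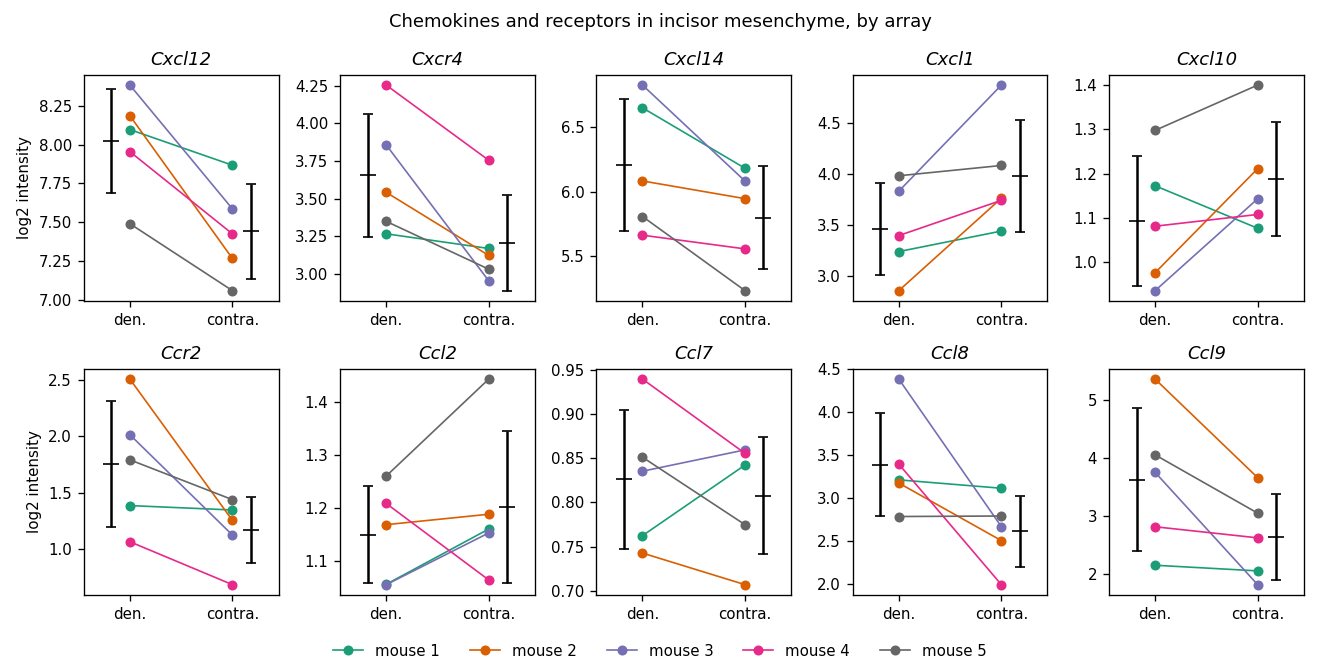
Log2 intensity of each of the 10 genes in denervated (left) and contralateral (right) incisors, with a line joining the incisors of each mouse and black bars for mean and SD (n = 5). The lines of Cxcl12, Cxcr4, Cxcl14, Ccr2 and Ccl9 all run downward from the denervated side and those of Cxcl1 all upward, while Cxcl10, Ccl2 and Ccl7 stay below 1.5; each panel has its own scale.

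Cxcl12, which lies on chromosome 6 (117168535 to 117181368, GRCm38.p6), encodes the main stromal ligand of CXCR4. In mice 1 to 5 it had 8.10, 8.19, 8.38, 7.95 and 7.49 in the denervated incisors, against 7.87, 7.27, 7.59, 7.42 and 7.06 in the contralateral incisors. The groups overlap because mouse 5 was low on both sides and mouse 1 had the highest contralateral value. The means were 8.02 ± 0.34 and 7.44 ± 0.31 (SD, n = 5 each), a log2 difference of 0.58 ± 0.18 (SE) or 1.50-fold. The 95% interval ran from 0.19 to 0.98, and from 0.33 to 0.83 when mice were a block. A further probe set differed by 0.56 ± 0.21 and was also higher in 5 of 5 mice. The last lay between 0.62 and 1.11 on every array, near the low end, and differed by -0.10 ± 0.09.

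Cxcr4, the CXCL12 receptor gene on chromosome 1 (128588199 to 128592299), had 3.27, 3.54, 3.86, 4.25 and 3.35 in the denervated incisors of mice 1 to 5. In the contralateral incisors it had 3.17, 3.12, 2.95, 3.75 and 3.03. Mouse 4 was the highest on both sides, and mouse 1 hardly differed between sides, by 0.10. The means of 3.65 ± 0.41 and 3.21 ± 0.32 (SD, n = 5 each) differed by 0.45 ± 0.20 (SE), with an interval from 0.00 to 0.89, and from 0.19 to 0.71 when mice were a block. The difference was 0.30 without denervated array 4. Cxcr4 has a single probe set, so no second measurement stands beside it.

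ACKR3, the other CXCL12 receptor, takes up the ligand and degrades it. Its gene Ackr3 had 8.23 ± 0.07 in denervated and 8.17 ± 0.11 in contralateral incisors (SD, n = 5), a difference of 0.06 with a 95% interval of -0.09 to 0.22. It was higher in 3 of 5 mice. Whether Ackr3 and Cxcl12 differ in their response was not tested.

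The 250 bases before the RefSeq transcription start of Cxcl12 (chr6:117168285-117168534, + strand) and Cxcr4 (chr1:128592300-128592549, - strand) are shown because this ligand and its receptor had higher means together. Capitals mark matches, on either strand, to the GC box GGGCGG and the TATA motif TATAAA.
Cxcl12: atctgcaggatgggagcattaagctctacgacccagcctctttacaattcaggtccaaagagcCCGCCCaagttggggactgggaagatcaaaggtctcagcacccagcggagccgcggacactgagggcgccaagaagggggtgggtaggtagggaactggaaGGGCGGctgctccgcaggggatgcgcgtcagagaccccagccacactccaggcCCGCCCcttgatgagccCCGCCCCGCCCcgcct
Cxcr4: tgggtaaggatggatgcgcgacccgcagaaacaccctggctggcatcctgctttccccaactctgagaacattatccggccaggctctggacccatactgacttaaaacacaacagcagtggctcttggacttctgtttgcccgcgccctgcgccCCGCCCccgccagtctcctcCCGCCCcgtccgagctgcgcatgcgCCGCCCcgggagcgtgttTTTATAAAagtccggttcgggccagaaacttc
The Cxcl12 window holds 5 matches to GGGCGG, of which the pair nearest the start overlaps, and none to TATAAA. The Cxcr4 window holds 3 matches to GGGCGG and a TATAAA on each strand, overlapping, with the forward match beginning 30 bases before the start. Of 32851 RefSeq promoter windows of this length 32.7% hold GGGCGG and 12.4% TATAAA. Of the 10 genes 8 have a window in the table, and 2 of the 8 hold GGGCGG and 3 TATAAA. A match is a description of the letters only.

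Cxcl14, on chromosome 13 (56288643 to 56296811), had 6.65, 6.08, 6.82, 5.66 and 5.81 in the denervated incisors of mice 1 to 5, against 6.18, 5.95, 6.08, 5.56 and 5.23 in the contralateral incisors. Mice 1 and 3 were high on both sides, and mice 4 and 5 low on both. The means of 6.21 ± 0.51 and 5.80 ± 0.40 (SD, n = 5 each) differed by 0.41 ± 0.25 (SE), with an interval from -0.15 to 0.96, and from 0.15 to 0.66 when mice were a block. Its other probe set differed by 0.31 ± 0.16 and was higher in 4 of 5 mice. Without denervated array 3 the difference was 0.25, and without contralateral array 5 it was 0.26.

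Ccr2, on chromosome 9 (124101918 to 124109140), is the receptor gene that marks monocytes that leave the blood. It had 1.39, 2.50, 2.01, 1.07 and 1.79 in the denervated incisors of mice 1 to 5 and 1.35, 1.26, 1.13, 0.69 and 1.44 in the contralateral incisors. Mice 2 and 3 held the high denervated values, and mouse 1 differed by only 0.04. The difference was 0.58 ± 0.24 (SE, interval 0.04 to 1.12), or 0.24 without denervated arrays 2 and 3. These values lie low on the scale, and the other 3 probe sets of Ccr2 differed by between 0.00 and 0.13.

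Ccl2 and Ccl7 encode monocyte attractants. Ccl2 ran from 1.06 to 1.26 in denervated and from 1.06 to 1.44 in contralateral incisors, with a difference of -0.05 (95% interval -0.23 to 0.13). Ccl7 ran from 0.74 to 0.94 in denervated and from 0.71 to 0.86 in contralateral incisors, with a difference of 0.02 (-0.12 to 0.16). Both lay low on the scale on all 10 arrays, and no difference was detectable at these intensities.

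Ccl8 lies in the same cluster on chromosome 11, where Ccl2 (82035577 to 82037452), Ccl7 (82045712 to 82047525) and Ccl8 (82115185 to 82116799) fall within 81.2 kb together with Ccl11, Ccl12 and the long noncoding RNA gene Gm38913. Mouse CCL8 attracts T cells and monocytes. Its gene had 3.21, 3.17, 4.38, 3.39 and 2.79 in the denervated incisors of mice 1 to 5, against 3.11, 2.51, 2.67, 1.99 and 2.79 in the contralateral incisors. Mice 3 and 4 differed by 1.71 and 1.40 and mouse 2 by 0.67, while mice 1 and 5 differed by 0.10 and -0.01. The means of 3.39 ± 0.60 and 2.61 ± 0.41 (SD, n = 5 each) gave a difference of 0.77 ± 0.28 (SE, interval 0.16 to 1.39), a 1.71-fold ratio. Without denervated arrays 2 and 3 it was 0.52. In the mouse CCL8 is known as a ligand of CCR8, and Ccr8, named here after its values were seen, averaged 0.43 over the 10 arrays with a difference of -0.12.

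Within that cluster Ccl12, another CCR2 ligand of the mouse, had 2.39 ± 0.72 in denervated and 1.91 ± 0.31 in contralateral incisors (SD, n = 5). Its difference of 0.48 ± 0.30 (SE) was positive in 5 of 5 mice, at 0.08, 0.51, 1.58, 0.22 and 0.01 in mice 1 to 5. The genes of this cluster are similar in sequence, and whether probes of Ccl2, Ccl7, Ccl8 and Ccl12 bind each other's RNA was not tested.

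Ccl9, on chromosome 11 (83572917 to 83578636), encodes a mouse chemokine made by macrophages and osteoclasts that acts on CCR1. It spread most among the 10 genes, with an SD of 1.09 over the arrays. It had 2.16, 5.35, 3.75, 2.82 and 4.05 in the denervated incisors of mice 1 to 5, against 2.06, 3.66, 1.83, 2.63 and 3.05 in the contralateral incisors. Mouse 2 was the highest on both sides, and the differences of 1.69, 1.93 and 1.00 in mice 2, 3 and 5 stand beside 0.10 and 0.19 in mice 1 and 4.

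The mean difference of Ccl9 was 0.98 ± 0.55 (SE), a 1.97-fold ratio, with an interval from -0.22 to 2.18, and from 0.34 to 1.62 when mice were a block. It was 0.55 without denervated array 2 and 0.36 without denervated arrays 2 and 3. Its other probe set differed by 0.58 ± 0.50 and was higher in 4 of 5 mice. Ccr1, the receptor gene, had 3.24 ± 0.36 in denervated and 2.65 ± 0.27 in contralateral incisors (SD, n = 5). Every denervated array of Ccr1 was above every contralateral array, as in 0.528% of all genes. Its difference was 0.59 ± 0.18 (SE) with an adjusted p of 0.790 in limma. Ccl6, a macrophage chemokine related to Ccl9, differed by 0.76 ± 0.33 and was higher in 5 of 5 mice.

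Cxcl1, on chromosome 5 (90891245 to 90893121), encodes a neutrophil attractant and was lower in its brightest probe set. That probe set had 3.24, 2.85, 3.83, 3.39 and 3.98 in the denervated incisors of mice 1 to 5, against 3.44, 3.76, 4.87, 3.74 and 4.08 in the contralateral incisors. Each mouse was lower on the denervated side, mice 2 and 3 most. The means of 3.46 ± 0.46 and 3.98 ± 0.55 (SD, n = 5 each) differed by -0.52 ± 0.28 (SE), with an interval from -1.12 to 0.09, and from -0.87 to -0.17 when mice were a block. Without contralateral array 3, which held the highest value, the difference was -0.30.

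The other probe sets of Cxcl1 do not show this sign. The first lay between 0.82 and 1.49 and differed by 0.14 ± 0.12, and the other lay between 0.47 and 0.89 and differed by 0.05 ± 0.09. The name of the brightest probe set marks it as made of probes that can bind more than a single transcript, so the direction of Cxcl1 is uncertain. Cxcr2, the gene of its receptor on neutrophils, averaged 0.96 ± 0.17 in denervated and 1.07 ± 0.18 in contralateral incisors (SD, n = 5), near the low end. The neutrophil list had 7 of 8 genes with a higher mean and a median difference of 0.33. The calprotectin gene S100a8 differed by 3.63 in mouse 3 and by -1.84 in mouse 1, so that its mean of 0.54 ± 0.72 (SE) had the same sign in only 2 of 5 mice. S100a9 differed by 0.54 ± 0.74 and the granule protein genes Ngp and Camp by 0.81 ± 0.69 and 0.58 ± 0.45, each higher in 2 of 5 mice.

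Cxcl10, on chromosome 5 (92346638 to 92348889), ran from 0.94 to 1.30 in denervated and from 1.08 to 1.40 in contralateral incisors. Its difference was -0.10 (95% interval -0.29 to 0.10), and the values were low on all arrays. The gene of its receptor, Cxcr3, ran near the low end too, with 1.23 ± 0.08 and 1.25 ± 0.15 (denervated and contralateral, SD, n = 5 each). The interferon response list, in which Cxcl10 was not placed, had 8 of 11 measured genes with a higher mean, 0 past the test and a median of 0.28. Irf1, an interferon-induced transcription factor gene, differed by 0.42 ± 0.18 and was higher in 5 of 5 mice. The guanylate-binding protein genes Gbp2 and Gbp3 differed by 0.41 ± 0.28 and 0.41 ± 0.34, each higher in 4 of 5 mice.

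The windows before Cxcl1 (chr5:90890995-90891244, + strand) and Cxcl10 (chr5:92348890-92349139, - strand) are shown because these inducible chemokines had lower denervated means, in the brightest probe set for Cxcl1. Capitals mark matches on either strand to GGGAA and TTCC with 1 base between them, a form of the site of the inflammatory factor NF-kappaB, and to GAAA and GAAA with 2 bases between them, the core of the interferon response element.
Cxcl1: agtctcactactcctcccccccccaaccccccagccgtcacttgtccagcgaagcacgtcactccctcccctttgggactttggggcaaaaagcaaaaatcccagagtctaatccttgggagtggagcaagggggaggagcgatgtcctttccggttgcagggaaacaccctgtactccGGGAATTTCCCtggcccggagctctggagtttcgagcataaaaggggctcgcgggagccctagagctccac
Cxcl10: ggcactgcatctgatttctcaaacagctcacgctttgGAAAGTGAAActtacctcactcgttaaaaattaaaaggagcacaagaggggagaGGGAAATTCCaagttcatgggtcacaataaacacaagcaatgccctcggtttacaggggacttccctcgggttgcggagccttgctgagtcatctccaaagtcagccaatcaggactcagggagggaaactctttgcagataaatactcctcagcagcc
Ccl2 and Ccl7 have no window, so they could not be searched. Of the 8 windows only those of Cxcl1 and Cxcl10 hold the NF-kappaB form, and of all 32851 windows 0.283% do. In Cxcl1 a match on each strand overlaps, the forward match beginning 71 bases before the start, and in Cxcl10 the match begins 159 bases before the start. The interferon form is found in Cxcl10, 213 bases before the start, and in Cxcl14, and in 2.98% of all windows. A form of either site that differs in a letter would not be found by this search.

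**Figure D2:**
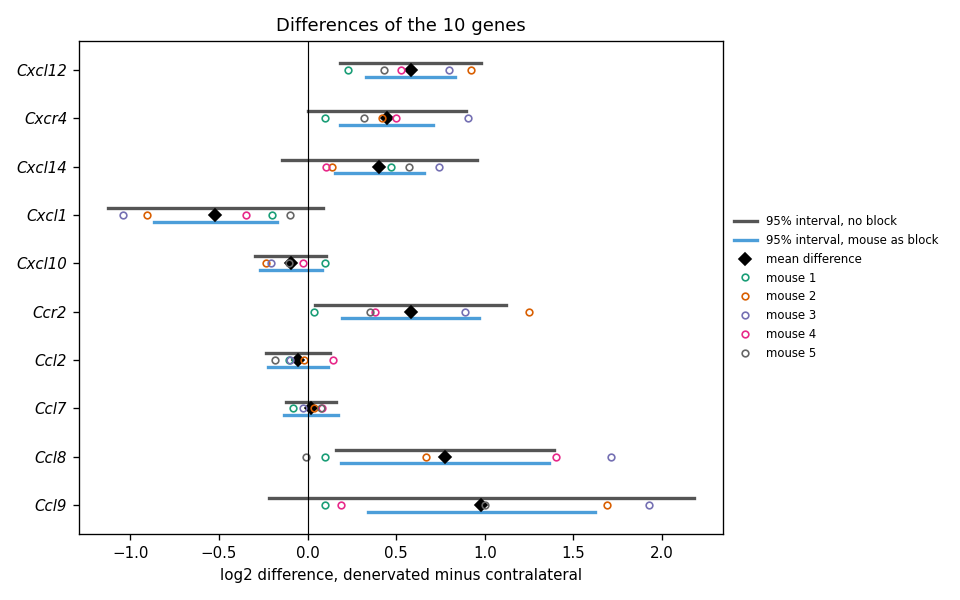
Log2 difference, denervated minus contralateral, of the 10 genes: diamonds are means, open circles the 5 mice, and bars the 95% intervals of limma without (grey) and with (blue) the mouse as a block. The intervals of Cxcl14, Cxcl1 and Ccl9 include 0 without the block and exclude it with the block. Those of Cxcl10, Ccl2 and Ccl7 are narrow and include 0 in both, at values near the low end, which limits what can be seen.

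The rest of the chemokine system was mostly near the low end. Of 51 further ligands, receptors and atypical receptors 46 were measured, 37 of them with a mean below 2. None passed limma's test; 25 had a higher and 21 a lower mean, and the median difference was 0.01. By kind, 8 of 14 CC ligands, 5 of 13 CXC, CX3C and XC ligands, 8 of 14 receptors and 4 of 5 atypical receptors had a higher mean. In all 46, 4 were higher in each of the 5 mice and 3 lower in each, beside 6.58% and 3.8% of all genes.

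Among the 9 further genes with a mean above 2, the 4 that were higher in each mouse were Ccl6, Ccl12, Ccr1 and Cx3cr1. Cx3cr1, a receptor gene of tissue macrophages, had 4.44 ± 0.22 in denervated and 4.14 ± 0.13 in contralateral incisors (SD, n = 5), and the difference was 0.31 ± 0.11 (SE). Its ligand gene Cx3cl1 had 3.86 ± 0.23 and 3.92 ± 0.20 there, a difference of -0.07 (95% interval -0.34 to 0.21). Pf4, a chemokine of platelets that macrophages can also express, had 5.58 ± 0.58 and 4.96 ± 0.28, a difference of 0.63 ± 0.25 that was positive in 4 of 5 mice. Ccl27a, an epithelial chemokine, differed by 0.17 ± 0.20, and Xcl1, a lymphocyte chemokine near the low end, by -0.18 ± 0.09.

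The atypical receptors, which bind chemokines without coupling to G proteins, had a median difference of 0.06. Ackr1 differed by 0.13, Ackr2 by 0.02, Ackr4 by 0.11 and Ccrl2 by -0.10, with standard errors of 0.15, 0.12, 0.17 and 0.12. Regulators of receptor signalling had 7 of 11 genes with a higher mean and a median of 0.03. Arrb2, which encodes a beta-arrestin that uncouples receptors, differed by 0.34 ± 0.10 and was higher in 5 of 5 mice, and the receptor kinase gene Grk6 differed by 0.19 ± 0.08. The G protein genes Gnai2 and Gnai3 differed by 0.03 ± 0.06 and 0.02 ± 0.08.

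Inflammatory cytokines and NF-kappaB feedback genes had 8 of 12 higher means, a median of 0.10 and 0 past the test. Relb, an NF-kappaB subunit gene, differed by 0.45 ± 0.13 at a mean of 2.11, Vcam1, an adhesion molecule gene, by 0.47 ± 0.18, and Nfkbia, the gene of an NF-kappaB inhibitor, by 0.21 ± 0.12.

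**Figure D3:**
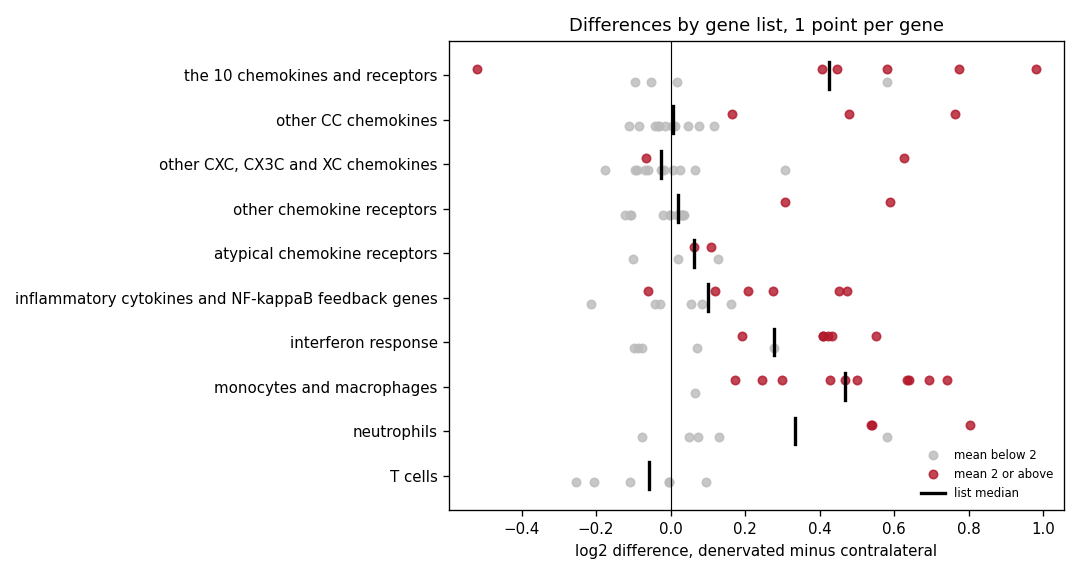
Log2 difference, denervated minus contralateral, with a point per gene for the 10 chemokines and receptors and 9 other lists; black lines are list medians, red points genes with a mean of 2 or above and grey points genes below 2. Among the other chemokine lists, the points to the right of 0.2 are Ccl6, Ccl12, Pf4, Ccr1 and Cx3cr1 in red and 1 grey point.

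Markers of cells that make or answer chemokines were counted in the same way. Denervated means were higher for all 11 measured monocyte and macrophage genes (55.8% of all genes), with a median of 0.47 and 0 past the test. In each mouse 8 of them were higher, as were 6.58% of all genes. The macrophage surface gene Adgre1 differed by 0.47 ± 0.14 and the Fc receptor gene Fcgr1 by 0.64 ± 0.12. In both every denervated array was above every contralateral array, as in 0.528% of all genes. The lysosomal gene Cd68 differed by 0.74 ± 0.28, the lysozyme gene Lyz2 by 0.63 ± 0.19 and Csf1r, the receptor gene for the macrophage growth factor, by 0.30 ± 0.15. The summed linear intensity of the list ran from 1346 to 2250 in denervated and from 1140 to 1326 in contralateral incisors. The mean difference of the list was 0.19, 0.67, 0.86, 0.16 and 0.35 in mice 1 to 5. Cxcl12, Ccl9 and Ccr2 also had their largest differences in mice 2 and 3. Cxcl14 had its largest, 0.74, in mouse 3 and 0.14 in mouse 2. Cxcr4 and Ccl8 had their largest in mice 3 and 4, at 0.90 and 0.50 for Cxcr4 and 1.71 and 1.40 for Ccl8.

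Pericyte and smooth muscle genes had 9 of 10 higher means and a median of 0.34, with summed intensities of 1970 to 3333 in denervated and 1754 to 1939 in contralateral incisors. Their mean difference was 1.04 and 0.75 in mice 2 and 3, 0.12 and 0.15 in mice 1 and 4, and -0.11 in mouse 5. Cxcl12 differed by 0.92 and 0.80 in mice 2 and 3, by 0.23 and 0.53 in mice 1 and 4, and by 0.43 in mouse 5. The pericyte genes Pdgfrb and Rgs5 differed by 0.33 ± 0.10 and 0.31 ± 0.10, each higher in 5 of 5 mice. In both, as in Adgre1 and Fcgr1, every denervated array was above every contralateral array. The endothelial list had 8 of 8 higher means and a median of 0.12, but 0 of the 8 genes were higher in each mouse. Its mean difference was -0.09, 0.61, 0.56, -0.07 and -0.11 in mice 1 to 5. The vessel adhesion gene Pecam1 differed by 0.46 ± 0.22, the receptor gene Tek by 0.24 ± 0.21, the cadherin gene Cdh5 by 0.07 ± 0.14 and Emcn by 0.03 ± 0.12. The part of any of these cell types in the chemokine differences was not tested.

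Genes of T cells, B cells, NK cells, dendritic cells and mast cells had 24 members measured, and all 24 had a mean below 2. The list medians were -0.06, -0.07, -0.02, 0.06 and 0.02 in that order. The T cell receptor complex gene Cd3e and Cd4 averaged 1.48 and 1.40, and both differed by less than 0.01. Cd8a, the coreceptor gene of cytotoxic T cells, averaged 1.15 and differed by -0.25 ± 0.11, lower in 5 of 5 mice, with an adjusted p of 0.790 in limma and 0.399 with mice as a block. Cd3d differed by -0.21 ± 0.13. The B cell genes Cd79a, Cd79b and Ms4a1 differed by -0.07, -0.06 and -0.11, and the NK cell genes Gzma, Klrd1 and Prf1 by -0.06, 0.07 and -0.02. The dendritic cell genes Cd209a and Itgax differed by 0.19 ± 0.08 and 0.16 ± 0.13, each higher in 5 of 5 mice, and Flt3 and Zbtb46 by 0.02 and 0.06. The mast cell genes Cpa3, Fcer1a and Tpsb2 differed by -0.02, -0.05 and 0.14. Osteoclast genes had a median of 0.18 with 4 of 6 higher means, among them the cathepsin K gene Ctsk at 0.27 ± 0.18, Acp5 at 0.63 ± 0.39 and Mmp9 at 0.47 ± 0.46. The medians were 0.05 for fibroblast-like mesenchyme (4 of 6 genes with a higher mean) and -0.28 for odontoblasts (1 of 5). Differences of single odontoblast genes ran from -0.48 to 0.23. The mean difference of the odontoblast list was -0.31, -0.91, 0.24, -0.24 and 0.16 in mice 1 to 5. Of the fibroblast-like genes Col3a1, a collagen gene, differed by 0.19 ± 0.08 and Lum by 0.09 ± 0.08. Col1a1 differed by -0.09 ± 0.08 and was lower in 4 of 5 mice. The odontoblast genes Dspp, Nes and Phex differed by -0.18 ± 0.08, -0.35 ± 0.15 and -0.28 ± 0.17.

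The dental epithelium list had a median of -0.50 (7 genes), with the amelogenin gene Amelx at -0.91 ± 0.79, Cdh1 at -0.43 ± 0.32 and Epcam at -0.21 ± 0.15. Its mean difference was 0.02, -0.25, -3.26, 0.13 and -0.15 in mice 1 to 5. Amelx was higher in 3 of 5 mice and Cdh1 in 2, while Epcam was lower in each. The Schwann cell list held 2 measured genes, both with a mean below 2: S100b differed by 0.62 ± 0.57 and was higher in 2 of 5 mice, and Sox10 differed by 0.39 ± 0.30 and was higher in 3 of 5. Their median of 0.51 rests on mice 2 and 3, since the mean difference was -0.51, 2.35, 1.13, -0.25 and -0.19 in mice 1 to 5. The red cell genes Alas2 and Hba-a1 differed by -0.01 ± 0.31 and 0.06 ± 0.09.

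**Figure D4:**
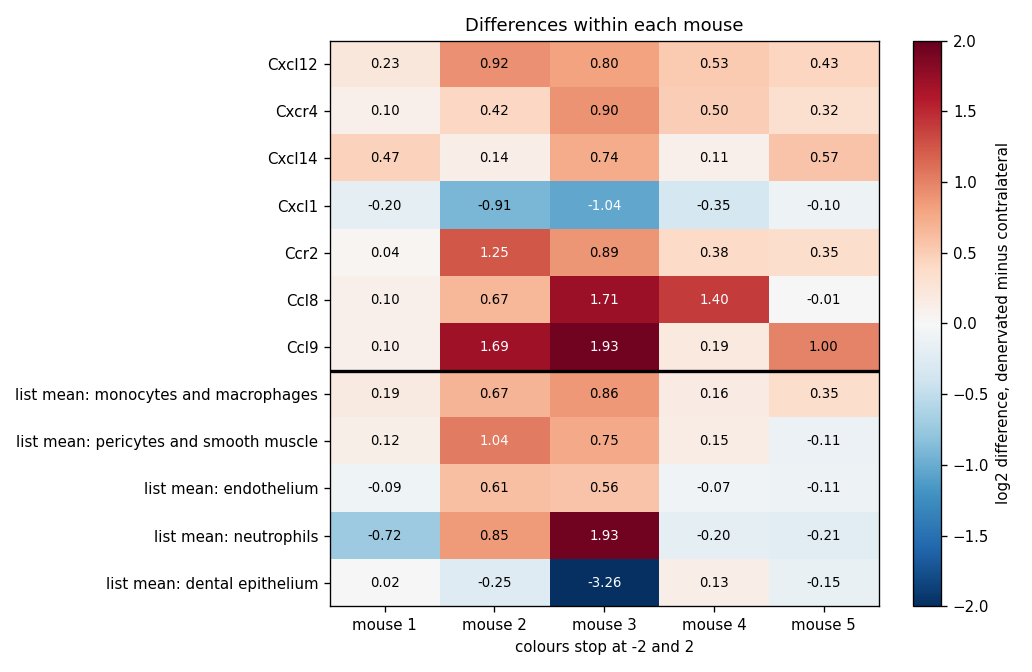
Log2 difference, denervated minus contralateral, within each of the 5 mice for 7 of the genes (above the line) and the mean over the genes of 5 marker lists (below it), coloured from blue (lower) to red (higher). Cxcl12, Ccl9, Ccr2 and the macrophage, pericyte, endothelial and neutrophil lists were highest in mice 2 and 3. Cxcr4 and Ccl8 were highest in mice 3 and 4, and the epithelial list was low in mouse 3 at -3.26.

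Across the 10 arrays, the likeness of other genes was measured as the root mean square distance between log2 values after subtracting each gene's mean. Nearest to Cxcl12 were Dcxr, a carbonyl reductase gene (0.10), Cdc42ep5 (0.13) and Adgra2, an adhesion receptor gene (0.14). Nearest to Cxcr4 were Syt11 (0.14), Pax9, a transcription factor gene of tooth mesenchyme (0.14), and Gprasp2 (0.17). Nearest to Cxcl14 were Prelp, a matrix proteoglycan gene (0.14), Enpp6 (0.16) and Grin3a (0.17). Nearest to Ccr2 were Ly6e (0.18), Lepr (0.18) and Rhou (0.19).

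The distances were larger for the more variable genes. Nearest to Ccl9 were Ms4a6d (0.38), Fcna (0.54) and Ccl6 (0.56), and Ms4a6d and Fcna are expressed by macrophages. Nearest to Ccl8 were the angiopoietin gene Angpt1 (0.31), Uba7 (0.32) and Sfrp4 (0.32), and to Cxcl1 Txndc2 (0.25), the convertase gene Pcsk5 (0.29) and Rims1 (0.29). Pcsk5 was lower on the denervated side in each of the 5 mice, by -0.43 ± 0.20 on average (SE). Txndc2 and Rims1 were each higher in 1 mouse. All were picked for their likeness to Cxcl1 on these same arrays, so their direction is no separate evidence on Cxcl1. These distances describe the 10 arrays, which share mice and processing.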

How the data were processed

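Affymetrix arrays were read as log2 intensity, which the authors normalized by RMA per the submitters' processing notes, of a version not given in the sources used here. Medians of 1.48 to 1.54 are low for RMA, and which variant was used is not known. There are no detection calls, and the number of arrays limits precision (median standard error 0.10).

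Of 45101 probe sets 64 controls were left out, and 34945 name 1 gene symbol, 932 several and 9160 none. The probe set with the highest mean stands for a gene, giving 18193 genes. Groups were compared with limma 3.58.1 (lmFit, eBayes) in R 4.3.3 without further normalization, with Benjamini-Hochberg adjustment over all genes and a threshold of 0.05. The fit was tested on simulated data. Positions and promoter sequences are RefSeq's, build GRCm38.p6.

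Both sides of 5 mice were used, per the design text, and the labels number each side from 1 to 5 without naming mice. Arrays of equal number deviated together from their group means (correlations of 0.18 to 0.57 in 5 pairs, against -0.41 to 0.22 over the 20 remaining pairs). Of the 5 denervated arrays, 4 correlated best with the contralateral array of equal number. Equal numbers were therefore taken as a mouse, and a second fit used it as a block. The counts by mouse and the block intervals rest on this pairing. P-values without the block set the difference against the spread between arrays of a side. Those with the block set it against the spread of the differences within the 5 mice.

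The 10 genes and 22 further lists (169 of 187 entries measured) were chosen with earlier results of these data known, so counts over them are descriptions. Named from each further list are the 2 genes with the smallest p and the 2 with the highest mean, plus fixed receptors and macrophage genes. Genes of like pattern are the nearest 3 for each listed gene with an SD of at least 0.3. Alternatives were the block, leaving out arrays, other probe sets, filters on dim genes, renewed normalization and another variance model.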

Additional observations from a re-analysis of the deposited data

Results flagged for a closer look

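Cxcr4 in contralateral array 4 was 3.75, further above the other contralateral arrays (2.95 to 3.17) than a test for a stray value among 5 allows. The denervated array of the same mouse was also the highest of its group, at 4.25. Among 20 groups tested in this way, chance would mark about 1 in 20.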

How the results depend on the processing

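No gene passed in any alternative, and the differences of Cxcr4, Cxcl14, Cxcl10, Ccl8, Ccl9 and Ccr2 kept their sign wherever they were run; the filter above 4 left out all of these but Cxcl14, and the filter above 2 left out Cxcl10 and Ccr2. With the replicate block the count past the threshold was 0, the count of the 10 genes higher in all pairs was 5 and no call changed. Leaving out an array, Ccl7 differed by -0.0099 to 0.039 and Ccl2 by -0.086 to 0.0083, while Cxcl12 stayed between 0.49 and 0.71. Other probe sets turned the sign of Cxcl12 (-0.10) and Cxcl1 (0.14 and 0.053). Averaging over probe sets, Cxcl12 differed by 0.35, Ccr2 by 0.18 and Cxcl1 by -0.11. Without denervated arrays 2 and 3, Cxcl12 differed by 0.41, Cxcr4 by 0.42, Cxcl14 by 0.24 and Cxcl10 by -0.0039, and the median of the 10 was 0.24. Of the 10 genes 2 have a mean above 4, and both were higher on average and in all pairs. Medians of other lists moved under the filters on dim genes, which tested fewer genes. With the same genes tested, the receptor median also moved when some single arrays were left out and on renewed quantile normalization. The median of CXC, CX3C and XC ligands also moved without denervated array 3 and without contralateral array 2. With genes above 4, CC ligands, CXC, CX3C and XC ligands and receptors each kept only 1 gene. These were Ccl27a at 0.17, Pf4 at 0.63 and Cx3cr1 at 0.31. With genes above 2, the same lists kept 3, 2 and 2 genes, with medians of 0.48, 0.28 and 0.45. Renewed quantile normalization gave receptors 0.038. Leaving out an array gave receptors -0.0091 to 0.039, CXC, CX3C and XC ligands -0.076 to -0.0082 and CC ligands -0.03 to 0.05. Values near the low end limit what can be seen of Ccl2, Ccl7, Cxcl10 and Ccr2.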
